A study of Homo sapiens with 4 samples.

Results

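Integrins are the cell-surface receptors with which a cell holds on to the matrix around it. The 10 integrin genes described here were chosen by symbol: 5 alpha chains (ITGA2, ITGA3, ITGA5, ITGA6 and ITGAV) and 5 beta chains (ITGB1, ITGB3, ITGB4, ITGB5 and ITGB8). All 10 were found among the 58735 genes of the deposited table, and all 10 passed the filter on low counts, a mean of at least 1 CPM (counts scaled to library size) over the libraries, which kept 14585 genes. They are 10 of the 26 integrin chain genes looked for in the table.

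The libraries come from MDA-MB-231, a line of human triple-negative breast tumour cells, which carries a doxycycline-inducible fusion of histone H2B and eGFP in all 4 samples. Every sample received 5 μg/ml doxycycline for 3 days, was stained with the dyes Claret and Violet, and was chased for 12 days while label was diluted by division. The Claret, eGFP and Violet libraries each hold the 1% of cells that kept most of the named label (slow-cycling cells), and the Bulk library holds cells sorted with no fluorescence gate. Each group is 1 library, so no difference below has a replicate check, and intervals cover counting error only. In bulk RNA, fewer cells with a transcript and less transcript per cell cannot be told apart.

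An integrin is a pair of an alpha and a beta chain, and the pair decides what is bound. The alpha chains of ITGA3 and ITGA6 make laminin receptors, that of ITGA2 a collagen receptor and that of ITGA5 the classical fibronectin receptor, each with the common beta chain of ITGB1. The beta chain of ITGB4 pairs only with that of ITGA6, and its long cytoplasmic tail ties laminin to keratin filaments at hemidesmosomes. The alpha chain of ITGAV pairs with the beta chains of ITGB1, ITGB3, ITGB5 and ITGB8, which bind RGD-containing ligands such as vitronectin and, for ITGB8, latent TGF-beta.

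Values for the 4 libraries are given in the order Bulk, Claret, eGFP and Violet, and those for the slow-cycling libraries in the order Claret, eGFP and Violet. Summed counts ranged from 15508179 to 16976909 per library, and the mitochondrial share was 4.19% in Bulk and 5.06% to 5.48% elsewhere. Groups follow the sample titles, and the treatment field names a different sort in every sample. Markers fitted the label in part. ESR1 had 3 to 7 reads and PGR 0 in every library, VIM had 12507 to 18488 and CDH1 at most 3. Counts were not low for ERBB2 (1415 to 1542) or for the epithelial markers KRT8 (5924 to 6904) and KRT19 (2345 to 7329). KRT19 was called higher in all 3 slow-cycling libraries, with log2 ratios to Bulk of 1.54, 1.53 and 1.28. Of the mesenchymal markers, VIM was above Bulk (0.46, 0.44 and 0.35). CAV1 (-0.85, -0.95 and -0.77) and S100A4 (-0.35, -0.55 and -0.24) were below Bulk, and CD44 and AXL lay on both sides. Of the markers of other cells, PTPRC had 0 to 2 reads, CD3E and LUM 0 and CDH5 0 to 2. COL1A1 had 284 to 363 reads, PDGFRB 201 in Bulk and 421 to 431 in the others (called higher in eGFP and Violet), PECAM1 54 to 87, and VWF 4 in Bulk and 19 to 24 in the others (called higher in all 3). VWF stood at 0.254 CPM in Bulk with a mean of 1.06 CPM. It thus passed the filter only through the slow-cycling libraries, and its calls carry no weight. The fibroblast list summed to 30.8 CPM in Bulk and 46.8 to 49.3 CPM in the others, with 3 of its 5 genes at 3 reads or fewer, and the 4 endothelial genes to 4.38 to 8.07 CPM. The 5 epithelial genes summed to 735 CPM in Bulk and 939.6 to 1034 CPM in the others. The part of these differences in the results was not tested.

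The integrin genes together took 60276, 105332, 101580 and 103609 reads. That is 0.376%, 0.620%, 0.640% and 0.668% of all counted reads, lowest in Bulk. ITGA3 alone gave 26128 of these reads in Bulk and 51044 to 53317 in the others, so the sum follows that gene. Levels between genes are given per length, as CPM after TMM scaling divided by the deposited gene length in kilobases (RPKM). Differences between libraries are log2 ratios of CPM, with 95% exact intervals of the ratio of reads. A gene is called when an exact binomial test on the reads of the 2 libraries gives a Benjamini-Hochberg adjusted p under 0.05 over all 14585 genes and the ratio is at least 2-fold. That test compares 2 libraries, not the conditions.

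By this rule 2 of the 10 integrin genes were called against Bulk in every slow-cycling library, all of them higher. ITGB4 was called in all 3, ITGB8 in Claret and Violet, and ITGA3 in eGFP. Over all genes kept, 17.9%, 19.5% and 18.4% were called, with 11.2%, 11.9% and 11.5% higher and 6.71%, 7.61% and 6.91% lower. A count of 2 in 10 is close to that background. With the fold lowered to 1.5, 4, 4 and 5 integrin genes were called higher and again 0 lower. The background at that fold was 36.2%, 38.1% and 37.1% called, with 19.6%, 20.3% and 20.5% higher and 16.6%, 17.8% and 16.6% lower. The median log2 ratio of the 10 genes was 0.43, 0.56 and 0.58, beside medians of -0.01, -0.01 and 0.01 over all genes kept. In Claret and eGFP 8 of the 10 were above 0 and in Violet all 10.

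The slow-cycling libraries differed less from each other. Between Claret and eGFP 0 integrin genes were called, beside 0.713% of all genes, and between Claret and Violet 0, beside 0.782%. Between eGFP and Violet 1 was called, ITGB3, beside 0.926%. At 1.5-fold the counts were 0, 1 (ITGB3) and 2 (ITGB3 and ITGB4), beside 1.63%, 1.84% and 2.2% of all genes. All 10 integrin genes were lower in Claret than in Violet, with log2 ratios from -0.65 to -0.03 and a median of -0.14. Over all genes kept the median was 0.0, and 50.4% were above 0. For 8 of the 10 the adjusted p was under 0.05. ITGB1 (-0.03; exact binomial test, adjusted p = 0.144) and ITGB8 (-0.07; exact binomial test, adjusted p = 0.967) did not pass.

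**Figure D1:**
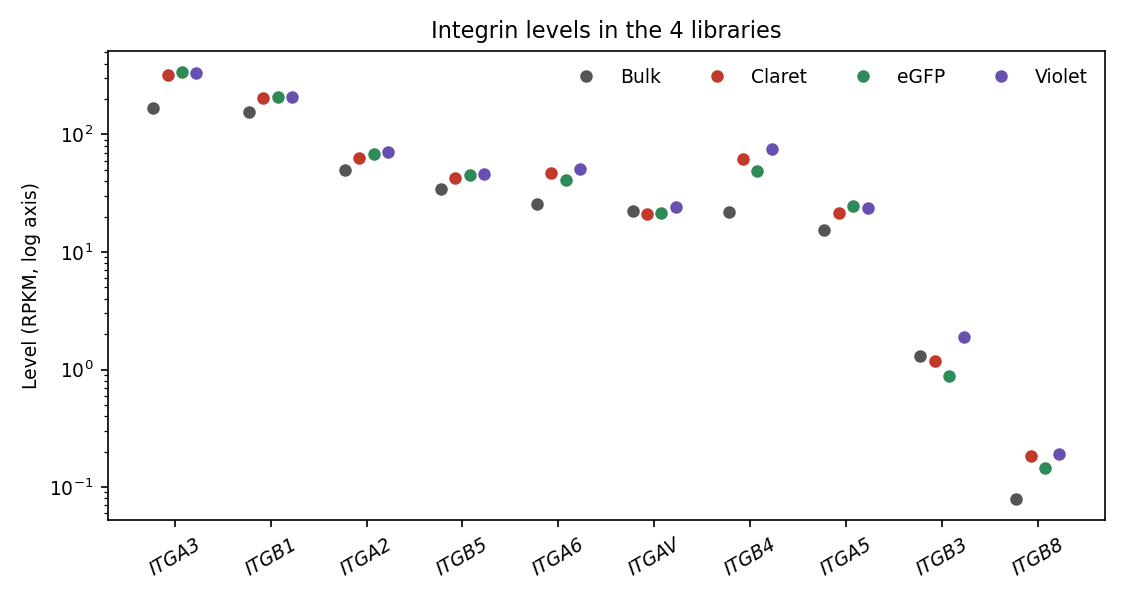
Level of each integrin gene (RPKM, log axis) in Bulk (grey), Claret (red), eGFP (green) and Violet (purple), 1 point per library. ITGA3 and ITGB1 lie above 100 RPKM in every library, ITGB3 between 0.888 and 1.89, and ITGB8 below 0.2.

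Promoter sequence was looked up because the title of the series names AP-1, the factor formed by FOS and JUN proteins. RefSeq windows of 300 bases (250 before and 50 after the start, GRCh38.p14) were listed for 7 of the 10 genes, with 12 starts in all. No window was listed for ITGA3, ITGB3 and ITGB4. The AP-1 motif TGANTCA, searched on both strands, was in 1 of the 12 windows (8.33%), beside 7.71% of all 35116 windows. The GC box GGGCGG was in 9 of 12 (75%), beside 45.0% of all. The single AP-1 match lay at the start of ITGA5, and the stretch from 110 bases before to 10 after that start is shown with those of ITGA6 and ITGA2, 2 higher genes without a match. Matches to either motif are in capitals.
ITGA5, chr12:54419257-54419376, minus strand: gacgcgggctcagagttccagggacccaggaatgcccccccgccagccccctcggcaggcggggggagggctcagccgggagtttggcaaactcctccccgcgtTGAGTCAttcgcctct
ITGA6, downstream of its 2 listed starts, chr2:172427476-172427595, plus strand: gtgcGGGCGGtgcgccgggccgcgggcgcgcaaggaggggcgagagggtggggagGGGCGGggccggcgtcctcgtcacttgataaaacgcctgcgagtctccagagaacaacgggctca
ITGA2, chr5:52989242-52989361, plus strand: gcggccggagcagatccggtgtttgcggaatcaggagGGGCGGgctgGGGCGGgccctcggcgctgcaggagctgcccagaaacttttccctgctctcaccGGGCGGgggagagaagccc
In ITGA5 the motif begins 6 bases before the start and ends on it. In the ITGA6 stretch the capitals are 2 GC boxes and in that of ITGA2 they are 3.

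Of the laminin receptor chains, ITGB4 differed most from Bulk. ITGB4 (ENSG00000132470, GRCh38 chromosome 17, 75721328 to 75757818) had 2327, 7086, 5288 and 8020 reads. Its level was 21.8 RPKM in Bulk and 61.7, 49.2 and 75.3 RPKM in the slow-cycling libraries, so every slow-cycling library was more than 2-fold higher and Violet stood highest. The log2 ratios to Bulk were 1.5 (95% interval 1.43 to 1.57), 1.17 (1.10 to 1.24) and 1.79 (1.72 to 1.85). These exceeded the ratios of 94.7%, 90.8% and 96.2% of all genes kept. The transcript of ITGB4 had the highest GC content of the 10 (63.7%). After a correction for transcript GC content ITGB4 was at 1.27, 0.99 and 1.64, and the eGFP value was then just under 2-fold.

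ITGB4 was also the integrin gene, among the 8 with a mean of at least 10 CPM, that differed most between slow-cycling libraries. Its log2 ratio was 0.33 for Claret against eGFP (0.28 to 0.38), -0.29 (-0.33 to -0.24) when Claret was set against Violet, and -0.61 (-0.66 to -0.56) when eGFP was. None of these reached 2-fold.

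ITGA6, the alpha partner of ITGB4, followed the same order of libraries with smaller steps. ITGA6 (ENSG00000091409, chromosome 2, 172427354 to 172506282) had 2654, 5254, 4253 and 5242 reads, or 25.8, 47.4, 41.0 and 51.0 RPKM. Bulk was lowest and eGFP the lowest of the other 3. Against Bulk its log2 ratios were 0.88 (0.81 to 0.95), 0.67 (0.60 to 0.74) and 0.98 (0.92 to 1.05), all past 1.5-fold and none past 2-fold. With library sizes from summed counts the Violet value was 1.03 and with a GC correction 1.07, past 2-fold. Between slow-cycling libraries eGFP against Violet was at -0.32 (-0.37 to -0.26).

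ITGA3, the alpha chain of the other laminin receptor, was the most abundant integrin gene per length in every library. ITGA3 (ENSG00000005884, chromosome 17, 50055968 to 50090481) had 26128, 53317, 52881 and 51044 reads, or 169, 320.3, 339 and 331 RPKM. The 3 slow-cycling libraries lay close together and all near 2-fold above Bulk. The log2 ratios were 0.92 (0.90 to 0.94), 1.00 (0.98 to 1.03) and 0.97 (0.95 to 0.99), so that eGFP sat on the 2-fold line and the other libraries just under it. Its transcript GC content was 61.3%, and with the GC correction the ratios were 0.77, 0.81 and 0.82, none of them called. Between slow-cycling libraries its largest log2 ratio in size was -0.08, for Claret against eGFP (-0.10 to -0.07).

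The collagen and fibronectin receptor chains were higher than Bulk by less. ITGA2 (ENSG00000164171, chromosome 5, 52989326 to 53094779) had 6185, 8428, 8571 and 8790 reads, or 49.6, 62.7, 68.2 and 70.6 RPKM. Its log2 ratios were 0.34 (0.29 to 0.39), 0.46 (0.41 to 0.51) and 0.51 (0.46 to 0.56), below 1.5-fold in every library. ITGA5 (ENSG00000161638, chromosome 12, 54395261 to 54419460) had 1852, 2753, 2978 and 2840 reads in the same order, or 15.5, 21.4, 24.7 and 23.8 RPKM. The log2 ratios of ITGA5 were 0.46 (0.38 to 0.55), 0.67 (0.59 to 0.76) and 0.62 (0.53 to 0.70), past 1.5-fold in eGFP and Violet. For ITGA2 and ITGA5, Claret was the lowest of the 3 slow-cycling libraries, whereas eGFP was the lowest for ITGB4 and ITGA6.

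ITGB1, the beta chain shared by most of these receptors, rose by a like amount in the 3 slow-cycling libraries. ITGB1 (ENSG00000150093, chromosome 10, 32900319 to 33005792) had 14645, 20788, 20065 and 19680 reads, or 155, 204, 210.0 and 208 RPKM. Its log2 ratios were 0.40 (0.37 to 0.43), 0.44 (0.41 to 0.47) and 0.43 (0.40 to 0.46). Between slow-cycling libraries its log2 ratios were -0.04 to 0.01. Of its 31-mers, 9.77% also occur in transcripts of other genes, chiefly a processed copy (AC022149.1), so part of its count depends on how shared reads were treated. Its divergent neighbour on the other strand, the non-coding ITGB1-DT, had 17 reads in Bulk, against 81, 79 and 75, log2 ratios of 2.02, 2.08 and 2.02, called in all 3. The exons of that gene cover 0.699% of those of ITGB1.

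The αV group split by beta chain. ITGAV (ENSG00000138448, chromosome 2, 186590065 to 186680901) had 2884, 2908, 2828 and 3109 reads, or 22.3, 20.9, 21.7 and 24.0 RPKM. Its levels lay closer together than those of any gene above, and its log2 ratios to Bulk were -0.10 (-0.17 to -0.02), -0.04 (-0.12 to 0.03) and 0.11 (0.04 to 0.18). The eGFP difference was not detectable at this depth (exact binomial test, adjusted p = 0.348). The sign for ITGAV turned with the GC correction, to 0.04 in Claret and 0.08 in eGFP, and in eGFP also with a filter at 10 CPM (0.03). ITGB5 (ENSG00000082781, chromosome 3, 124761948 to 124901418), whose product binds vitronectin, had 3492, 4662, 4619 and 4707 reads, or 34.4, 42.6, 45.1 and 46.4 RPKM. Against Bulk ITGB5 had log2 ratios of 0.31 (0.25 to 0.37), 0.39 (0.33 to 0.45) and 0.43 (0.37 to 0.50), with Bulk lowest.

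ITGB3 (ENSG00000259207, chromosome 17, 47253846 to 47311816) was a weakly read gene that lay on both sides of Bulk. It had 90, 89, 62 and 131 reads, or 1.30, 1.19, 0.888 and 1.89 RPKM. Its log2 ratios were -0.12 in Claret (-0.56 to 0.31; exact binomial test, adjusted p = 0.674), -0.54 in eGFP (-1.04 to -0.07) and 0.53 in Violet (0.14 to 0.95). For eGFP against Violet it was -1.07 (-1.55 to -0.65), the only call between slow-cycling libraries. In GENCODE 29, 51.6% of the exonic bases of ITGB3 are shared on the same strand with AC068234.1, which had 0 reads in all 4 libraries. How reads in that shared stretch were counted is not given in the sources used here, so the level per length of ITGB3 is uncertain.

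ITGB8 (ENSG00000105855, chromosome 7, 20330702 to 20415754) had the fewest reads, 19, 47, 35 and 46, or 0.0796, 0.183, 0.145 and 0.193 RPKM. Bulk was lowest, and the 3 slow-cycling libraries could not be told apart from each other by their intervals. The log2 ratios to Bulk were 1.12 (0.40 to 2.05), 0.81 (0.02 to 1.76) and 1.20 (0.48 to 2.13). In eGFP it was not past the test (exact binomial test, adjusted p = 0.0614). The wide intervals come from the low counts, and on the scale log2(FPKM + 1) its difference in Claret and Violet was 0.13 and 0.14, not called.

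**Figure D2:**
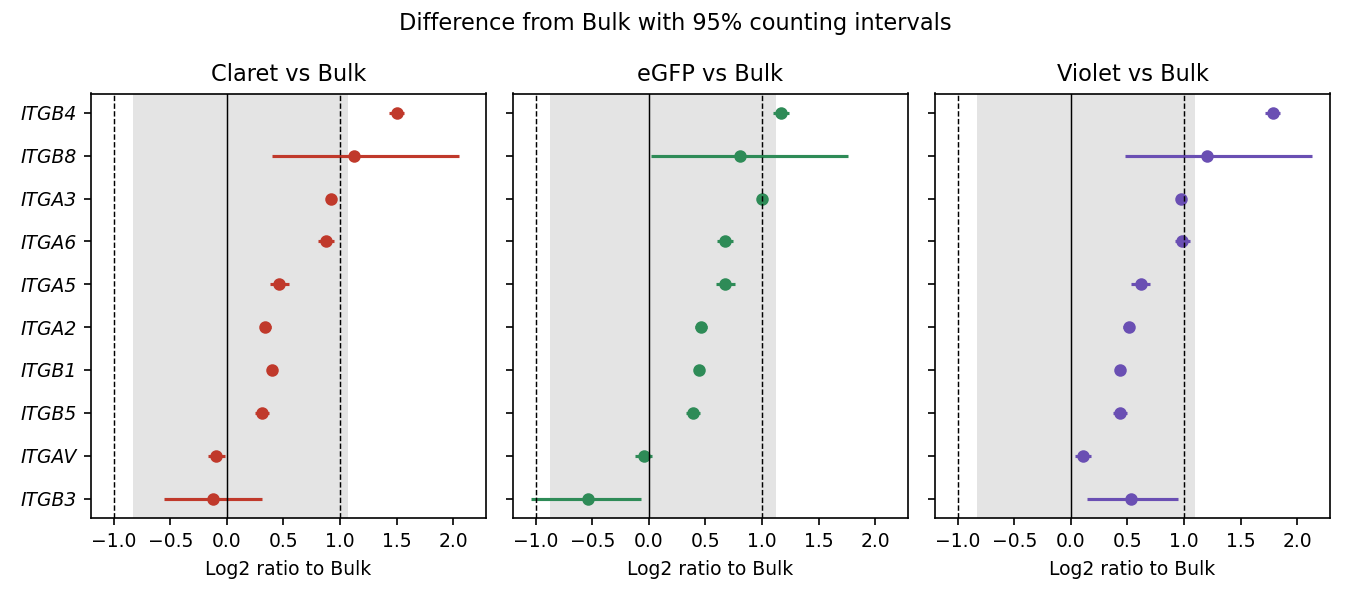
Log2 ratio to Bulk (x axis) of each integrin gene in Claret, eGFP and Violet, with 95% counting intervals as bars, the middle 80% of all genes kept in grey and 2-fold as dashed lines. ITGB4 lies beyond the grey band in every library, with ratios of 1.5, 1.17 and 1.79, and ITGAV lies at 0 or close to it.

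The make-up of the chains was compared within each library, which does not depend on how libraries are scaled. Of the summed RPKM of the 5 alpha chains, ITGA3 held 59.9%, 67.8%, 68.6% and 66.1%. ITGAV held 7.89% in Bulk and 4.41%, 4.38% and 4.81% in the others, and ITGA2 held 17.6% in Bulk and 13.3%, 13.8% and 14.1%. Bulk was thus poorer in ITGA3 and richer in ITGAV and ITGA2 than every slow-cycling library. ITGA6 held 9.13%, 10.02%, 8.28% and 10.2%, with Bulk in between.

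Of the beta chains, ITGB1 held 72.9%, 65.8%, 68.8% and 62.7% of the summed RPKM. ITGB4 held 10.3%, 19.95%, 16.1% and 22.7%. ITGB5 held 16.2%, 13.8%, 14.8% and 13.98% in the same order. ITGB4 therefore lay below ITGB5 in Bulk and above it in the 3 slow-cycling libraries. Per length of the longest coding transcript, an alternative added after seeing the data, ITGB4 was still below ITGB5 in eGFP (12.3% against 14.5%) and above it in Claret (15.4% against 13.7%) and Violet (17.7% against 14.04%). By the reads as counted, ITGB3 and ITGB8 together stayed under 1% in all 4 libraries. The ITGB3 share is uncertain, because AC068234.1 shares 51.6% of its exonic bases.

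**Figure D3:**
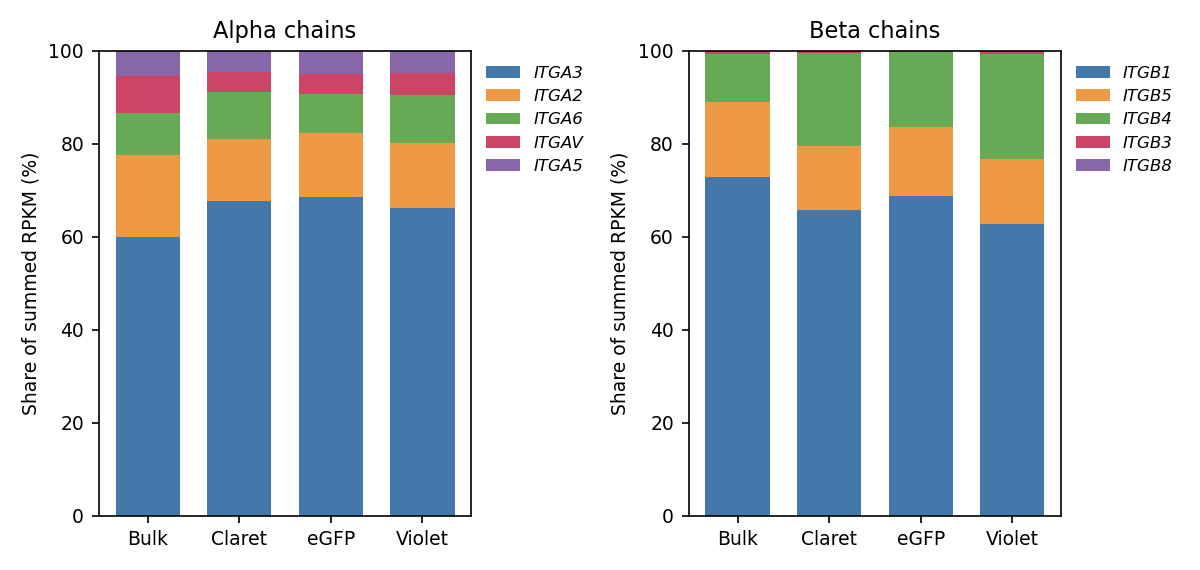
Share of the summed RPKM (y axis, percent) held by each alpha chain (left) and each beta chain (right) in the 4 libraries. The ITGB4 share is 10.3% in Bulk and 16.1% to 22.7% in the slow-cycling libraries, and the ITGA3 share is 59.9% in Bulk and 66.1% to 68.6% in the others.

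Ratios between alpha and beta partners were set side by side, because these chains leave the endoplasmic reticulum only as pairs. Ratios between chains of the same kind were added. There were 8 ratios in 6 pairs of libraries, 48 comparisons by Fisher's exact test on reads, adjusted over the 48. As for the test above, they compare libraries, not conditions. The ratios not described below are ITGA6 to ITGB1 and ITGA3 to ITGA6. They had an adjusted p under 0.05 in 6 and in 3 of the 6 pairs of libraries.

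The ratio of ITGB4 to ITGA6 was 0.847, 1.30, 1.20 and 1.48, in RPKM. ITGB4 was thus below its partner in Bulk and above it in every slow-cycling library, with either gene length. These levels were not corrected for transcript GC content, which was 63.7% for ITGB4 and 42.9% for ITGA6. The ratio was higher than in Bulk by 0.62 on the log2 scale in Claret (0.53 to 0.72), 0.50 in eGFP (0.40 to 0.60) and 0.80 in Violet (0.71 to 0.90). After the GC correction these were 0.29, 0.20 and 0.58, smaller but with the same sign. Whether ITGB4 stays above ITGA6 in each slow-cycling library after that correction was not tested. The ratio differed in all 6 pairs of libraries, and for eGFP against Violet by -0.30 (Fisher's exact test, adjusted p = 5.13e-14).

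The ratio of ITGB4 to ITGB1, the beta chains that compete for ITGA6, was 0.141, 0.303, 0.234 and 0.362. It was higher than in Bulk by 1.10, 0.73 and 1.36 on the log2 scale, and by 0.81, 0.49 and 1.15 after the GC correction. The ratio of ITGA3 to ITGB1 was 1.09 in Bulk and 1.57, 1.62 and 1.59 in the slow-cycling libraries. It differed from Bulk by 0.52 (0.49 to 0.56), 0.56 (0.53 to 0.60) and 0.54 (0.50 to 0.58), and between slow-cycling libraries by -0.04 to 0.02. After the GC correction the differences from Bulk were 0.30, 0.30 and 0.32. The laminin chain ITGA3 also gained on the collagen chain ITGA2, from a ratio of 3.41 in Bulk to 5.11, 4.98 and 4.69, and the log2 differences of 0.58, 0.55 and 0.46 were 0.35, 0.26 and 0.25 after the GC correction.

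In the αV group, ITGB5 over ITGAV was 1.54, 2.04, 2.08 and 1.93. The log2 difference from Bulk was 0.40 (0.31 to 0.50), 0.43 (0.33 to 0.53) and 0.32 (0.23 to 0.42), and 0.20, 0.26 and 0.14 after the GC correction. The ratio of ITGB3 to ITGAV was 0.0583, 0.0572, 0.0410 and 0.0787. It was lower in eGFP than in Violet by -0.94 on the log2 scale (-1.38 to -0.50; Fisher's exact test, adjusted p = 3.08e-05) and lower in Claret than in Violet by -0.46 (-0.86 to -0.07; Fisher's exact test, adjusted p = 0.0311). Violet was above Bulk by 0.43 (0.04 to 0.83; Fisher's exact test, adjusted p = 0.0434). Between Claret and Bulk no difference was detectable (log2 difference -0.03, -0.46 to 0.40; Fisher's exact test, adjusted p = 0.940).

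**Figure D4:**
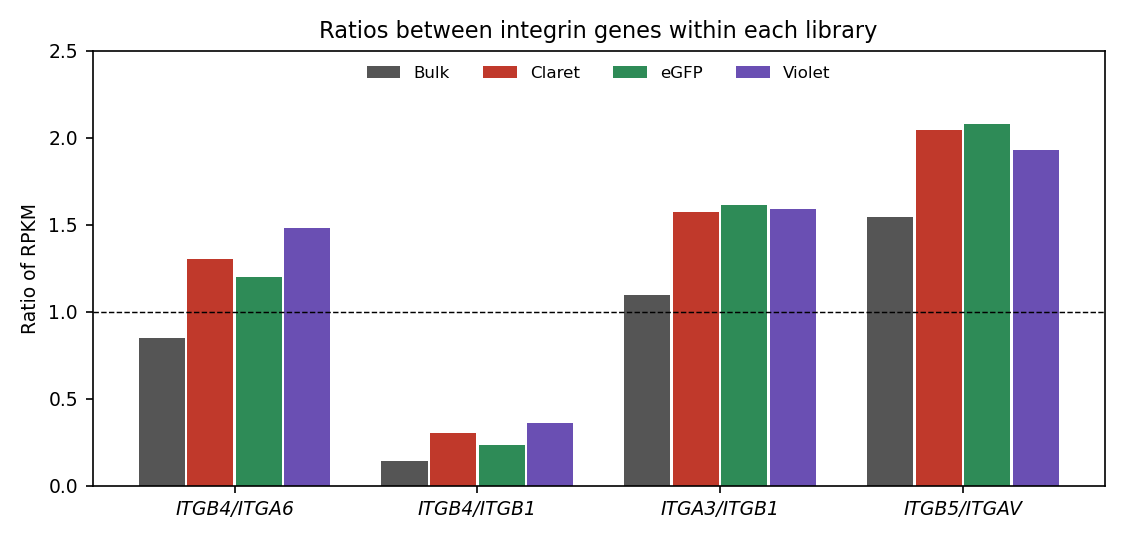
Ratio of RPKM (y axis) between 2 integrin genes within each library, with a ratio of 1 dashed. ITGB4 over ITGA6 is 0.847 in Bulk and 1.20 to 1.48 in the slow-cycling libraries, and ITGA3 over ITGB1 is 1.09 in Bulk and 1.57 to 1.62 in the others.

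By the distance of the 3 log2 ratios to Bulk, the genes most like ITGB4 among 9754 protein-coding genes with a mean of at least 10 CPM were CD22 (distance 0.081), CA11 (0.250) and SCNN1A (0.255). CD22, a lectin receptor best known from B cells, had 337, 1059, 767 and 1110 reads, with log2 ratios of 1.54, 1.17 and 1.72. CA11 had log2 ratios of 1.36, 1.18 and 1.58, and SCNN1A, a subunit of the epithelial sodium channel, 1.57, 1.40 and 1.70. The 3 ratios share the Bulk library, and the likeness rests on 4 libraries.

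Among the other 16 integrin chains, 6 were kept by the filter. ITGAX, an alpha chain known from myeloid cells that pairs with that of ITGB2, had 48, 589, 659 and 518 reads. Its log2 ratios were 3.46 (3.08 to 3.97), 3.71 (3.34 to 4.22) and 3.38 (3.00 to 3.89), the largest of any integrin gene kept. ITGB2, the beta chain of leukocyte integrins, had 176, 430, 328 and 310 reads, with log2 ratios of 1.17, 0.88 and 0.81, called in Claret. Of the 7 leukocyte markers listed, which include ITGB2, 5 had at most 3 reads in every library, PTPRC and CD3E among them. CD14 had 5, 7, 8 and 11 reads. The summed level of the 7 was 11.6 CPM in Bulk and 20.5 to 25.9 CPM in the others. Most of that sum was ITGB2 itself, at 11.2 CPM in Bulk and 19.7 to 25.3 CPM in the others. The source of the ITGAX and ITGB2 reads was not tested.

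ITGA1, a collagen receptor chain, had log2 ratios of 0.28, 0.34 and 0.67, and ITGA10, another, 0.64, 0.62 and 0.92. ITGA7, a laminin receptor chain, had 20 reads in Bulk, against 41, 44 and 45, with log2 ratios of 0.87, 1.05 and 1.10, called in eGFP and Violet. ITGAE was below Bulk at -0.32, -0.20 and -0.79. ITGA2B, ITGA4, ITGA8, ITGA9, ITGA11, ITGAD, ITGAL, ITGAM, ITGB6 and ITGB7 stayed under the filter, with at most 21 reads in any library.

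Of 22 genes kept that encode matrix bound by these receptors, or its regulators, 17, 18 and 18 had log2 ratios above 0, beside 49.6%, 49.3% and 50.7% of all genes kept. Those called higher were 3, 4 and 4, beside 11.2%, 11.9% and 11.5% of all genes. THBS1 was called lower in eGFP (-1.06), beside 7.61% of all genes lower there. At 1.5-fold 8, 12 and 11 were called higher, beside 19.6%, 20.3% and 20.5% of all genes. At that fold 1, 2 and 1 were called lower, beside 16.6%, 17.8% and 16.6%. Among the genes called higher at 2-fold were TNC and LAMA5 in every slow-cycling library, CCN1 in Claret (1.20) and eGFP (1.24), and FN1 in Violet. The medians of the 22 were 0.52, 0.61 and 0.58. TNC, which encodes tenascin-C, had 2500 reads in Bulk, against 6808, 6384 and 5429, with log2 ratios of 1.34, 1.34 and 1.12. LAMA5, the alpha chain of laminin-511, had 18054 reads in Bulk, against 42011, 40499 and 43984, with 1.11, 1.15 and 1.29. With the GC correction the LAMA5 ratio was 0.90 in Claret and in eGFP.

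LAMA3 and LAMB3 encode chains of laminin-332, the main ligand of the ITGA3 and ITGB4 receptors. LAMB3 had 13684, 22661, 22453 and 19566 reads, with log2 ratios of 0.62, 0.70 and 0.52. LAMA3 had 233, 396, 465 and 379 reads, with 0.65, 0.98 and 0.70. Both were thus above Bulk in every slow-cycling library and below 2-fold. FN1, which encodes fibronectin, the ligand of the ITGA5 receptor, had 11680, 18300, 22204 and 24708 reads, with log2 ratios of 0.54, 0.91 and 1.08, called in Violet.

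Of 15 lateral partners in the membrane, 2 were called higher in every slow-cycling library and 1 lower, in Violet, a share of higher genes near the background of 11.2%, 11.9% and 11.5%. SLC3A2, a heavy chain of amino-acid transporters that binds integrin beta chains, had log2 ratios of 1.37, 1.16 and 1.18. SDC4, a syndecan of focal adhesions, had 1.03, 1.23 and 1.15. CD151, a tetraspanin that binds the laminin receptors, had 7166, 10732, 9918 and 9171 reads, with 0.47, 0.46 and 0.36, and CD47 had 0.28, 0.30 and 0.26. SDC1 was at -0.89, -0.94 and -1.09, called in Violet.

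Of 25 activators and actin adaptors kept, which link integrins to actin, 2, 3 and 1 were called higher and 1 lower in each library. The background was 11.2%, 11.9% and 11.5% higher and 6.71%, 7.61% and 6.91% lower. The list had medians of -0.09, -0.07 and -0.10, over genes that ranged from -1.48 to 2.36 in Claret. TLN1, whose product talin turns integrins on, had 10043, 10638, 10253 and 10135 reads, with log2 ratios of -0.02, 0.02 and 0.01. FERMT2 (kindlin) had 0.05, 0.17 and 0.04, VCL (vinculin) -0.03, -0.05 and 0.03, and PXN (paxillin) 0.12, 0.10 and 0.07. FERMT3, the kindlin of blood cells, was called higher in Claret (1.14) and eGFP (1.41), and LIMS2 in eGFP (1.15). The signs for TLN1, FERMT2, VCL and PXN turned under some alternative settings given in the closing section.

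The list holds 4 tensins, adaptors of which TNS4 was called higher and TNS1 lower, while TNS2 (-0.56, -0.49 and -0.38) and TNS3 (-0.13, -0.22 and 0.14) were not called. TNS4 had 280, 1556, 1152 and 1593 reads, with log2 ratios of 2.36 (2.18 to 2.56), 2.02 (1.84 to 2.22) and 2.5 (2.33 to 2.70). TNS1 had 259, 99, 89 and 102 reads, with -1.48, -1.53 and -1.33, called lower in all 3. For TNS4, as for ITGB4 and ITGA6, eGFP was the lowest of the slow-cycling libraries and Violet the highest. ILK had 45 to 55 reads, and exons of other genes on the opposite strand cover 78.5% of its exonic bases, so its count is uncertain. The log2 ratios of ILK were -0.18, -0.14 and -0.28.

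Of 23 kinases and signalling adaptors, 1 was called higher in each library and 0 lower, beside 11.2%, 11.9% and 11.5% of all genes higher and 6.71%, 7.61% and 6.91% lower. The medians were -0.08, -0.17 and -0.19. The called gene was PTK2B, a kinase related to focal adhesion kinase, with 68 reads in Bulk, against 240, 225 and 276 and log2 ratios of 1.68, 1.69 and 1.99. PTK2, which encodes focal adhesion kinase itself, had 3464, 3705, 3400 and 3591 reads, with -0.01, -0.04 and 0.05. Of 22 inactivators and traffic genes kept, 1 was called higher in each library and 0 lower. The background was again 11.2%, 11.9% and 11.5% higher and 6.71%, 7.61% and 6.91% lower. The called gene of that list was ACAP1, which acts in the recycling of ITGB1. It had 38 reads in Bulk, against 147, 141 and 145, and log2 ratios of 1.79, 1.83 and 1.88. The medians of that list were 0.00, 0.03 and -0.03.

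Hemidesmosomes are where the ITGB4 receptor sits in epithelia. COL17A1, a transmembrane collagen of hemidesmosomes, had 215, 70, 45 and 72 reads, with log2 ratios of -1.70 (-2.14 to -1.33), -2.22 (-2.77 to -1.80) and -1.55 (-1.98 to -1.19), called lower in all 3. Of the 4 genes kept in this list 0 were called higher, a number too small to read against a background of 11.2%, 11.9% and 11.5%. PLEC, whose product plectin binds the ITGB4 tail, had 0.38, 0.43 and 0.38. KRT5 had 0 reads and KRT14 at most 1.

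**Figure D5:**
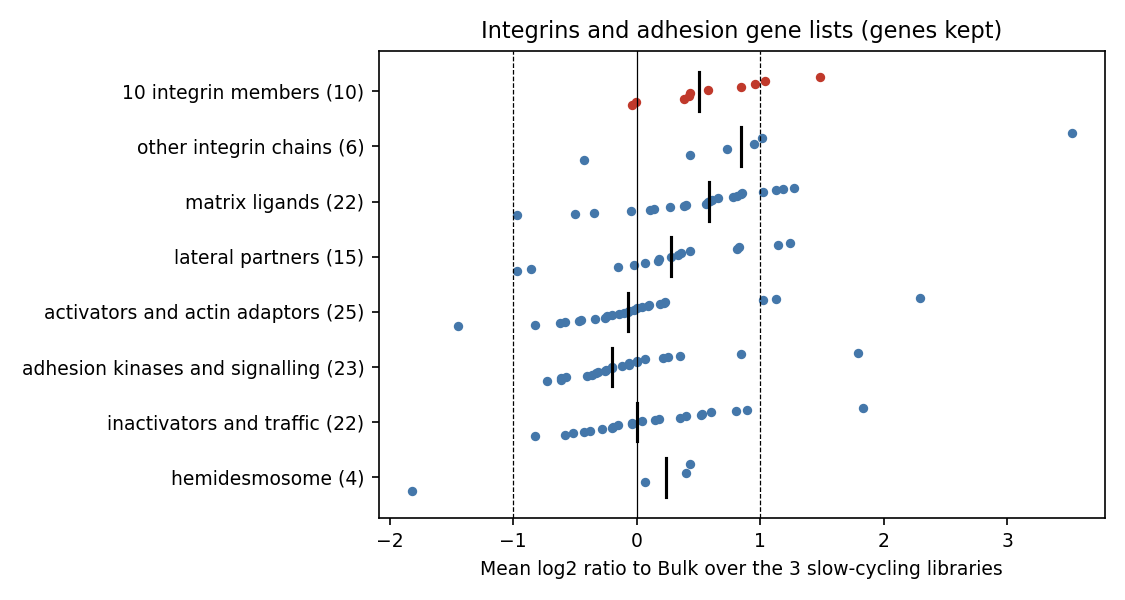
Mean log2 ratio to Bulk over the 3 slow-cycling libraries (x axis) of the integrin genes (red) and of each adhesion list (blue), 1 point per gene kept, with list medians as black bars and 2-fold as dashed lines. The 22 matrix ligands lie mostly to the right of 0, and the activators, kinases and traffic genes lie on both sides of it.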

How the data were processed

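RNA sequencing of 4 MDA-MB-231 libraries was used. The read counts per gene were deposited by the authors without normalization. The deposited FPKM values were computed by the authors from counts, scaled to gene length and library size. HISAT2 2.0.5 and featureCounts 1.5.0-p3 are named in the submitters' processing notes, and use of strand is not given in the sources used here. Start and end equal GENCODE 29 (GRCh38) for 58724 of 58735 genes. Libraries were grouped by title. Genes with a mean of at least 1 CPM were kept, sizes were scaled by TMM (edgeR 4.0.16, R 4.3.3), and log2 ratios used a prior count of 2. With 1 library per group edgeR's quasi-likelihood test could not be fitted. The exact binomial test was tested on simulated data. Symbols of all listed genes were matched, older ones through a name table. Alternatives were summed-count and DESeq2 1.42.0 scaling, prior count, filters, log2(FPKM + 1), a GC correction (running median over 501 genes), a 1.5-fold threshold and groups from the treatment field.

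The members and lists were chosen with earlier results of these data known. Named genes are the 10 integrin genes, other integrin chains kept, listed genes called alike in all 3 slow-cycling libraries (at most 4 per list and direction), a preset group (TLN1, FERMT2, PTK2, ILK, VCL, PXN, CD151, CD47, FN1, LAMA3, LAMB3) and the 3 genes nearest to ITGB4. ITGB1-DT, AC068234.1, SDC1, CCN1, THBS1, FERMT3, LIMS2, PLEC and the genes read as markers were named outside this rule. Some listed genes are not reported here. Of 16033922, 16976909, 15868881 and 15508179 counts in Bulk, Claret, eGFP and Violet, a count of 3, the limit that 0 reads allow, is 0.177 to 0.191 CPM.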

Additional observations from a re-analysis of the deposited data

Results flagged for a closer look

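ITGB3 was lower in eGFP than in Violet, with a log2 ratio of -1.07 (exact binomial test, called). Against Bulk it was at -0.54 (-1.04 to -0.07) in eGFP and 0.53 (0.14 to 0.95) in Violet, and in Claret no difference was detectable (-0.12, -0.56 to 0.31). Claret stood at -0.65 to Violet, under 2-fold and so not called. Its counts were 62 to 131 reads per library. The same-strand gene that shares its exons had 0 reads, so adding its reads, an alternative chosen after seeing the data, could change no value and says nothing of reads in the shared stretch.

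ITGAV lay below Bulk in Claret (-0.10) and above it in Violet (0.11), and in eGFP no difference from Bulk was detectable (-0.04, -0.12 to 0.03). Set against Violet, Claret was at -0.21 and eGFP at -0.15, not called at 2-fold. After a GC correction all 3 libraries were above Bulk, at 0.04, 0.08 and 0.21.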

How the results depend on the processing

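No paired analysis was possible because each group is 1 library and the labels carry no replicate numbers. ITGA2, ITGA3, ITGA5, ITGA6, ITGB1, ITGB4, ITGB5 and ITGB8 stayed above Bulk in all 3 libraries under every setting that used the titles and kept the gene. A filter at 10 CPM removed ITGB3 and ITGB8. The median of the integrin genes kept ranged from 0.35 to 0.50 in Claret, 0.42 to 0.63 in eGFP and 0.41 to 0.64 in Violet.

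The number of integrin genes called against Bulk, 2 in each library, was 4 in Violet with summed counts, 1 in each library on the scale log2(FPKM + 1), 0 in eGFP and 3 in Violet with the GC correction, and 1 in Claret and 3 in Violet with the filter at 10 CPM. No test was run on log2(FPKM + 1), so a call on that scale is the 2-fold cut-off alone. At 1.5-fold it was 4, 4 and 5 in Claret, eGFP and Violet, and 1 between Claret and Violet and 2 between eGFP and Violet. The call of ITGB3 for eGFP against Violet was lost on log2(FPKM + 1) (0 genes) and with the 10 CPM filter (0 genes). Over all genes, 2614, 2840 and 2688 were called in Claret, eGFP and Violet, against 1208, 1358 and 1276 on log2(FPKM + 1), 1277, 1424 and 1321 with the 10 CPM filter, and 5285, 5562 and 5408 at 1.5-fold. The share of higher genes among those called was 62.5%, 60.9% and 62.5%, and 48.8%, 46.6% and 41.8% on log2(FPKM + 1), which understates weakly read genes.

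With groups from the treatment field the medians were -0.58 in Claret, -0.14 in eGFP and -0.10 in Violet. Integrin genes called against Bulk were then 2 in Claret, both lower, 0 in eGFP and 1 in Violet, of 2688, 114 and 135 genes in all, and 2 between Claret and eGFP, 2 between Claret and Violet, and 0 between eGFP and Violet.

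With groups from the titles, the signs that turned were of ratios near 0. With summed counts PTK2 was at 0.01 in Claret and ITGB1 at -0.01 for eGFP against Violet. On log2(FPKM + 1) TLN1 was at -0.01 in eGFP and -0.03 in Violet, and in Violet FERMT2 was at -0.01 and VCL at -0.02. With the GC correction ITGAV was at 0.04 and 0.08 in Claret and eGFP, PXN at -0.05, -0.08 and -0.09 in Claret, eGFP and Violet, VCL at 0.01 in Claret, TLN1 at -0.09 in eGFP and in Violet, and ITGA3 at -0.03 for eGFP against Violet. With the 10 CPM filter PTK2 was at 0.06 and 0.03 in Claret and eGFP, TLN1 at 0.04 in Claret, VCL at 0.04 and 0.02 in Claret and eGFP, and ITGAV at 0.03 in eGFP. The cause of these changes was not tested.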
